A study of Mus musculus with 12 samples.

Results

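The genes described here are 10 genes of iron handling in the liver and of the hepcidin axis that controls it. They are *Hamp* and *Hamp2*, which encode the hepcidins, *Tfrc* and *Tfr2*, which encode the transferrin receptors, *Trf* (transferrin), *Slc40a1* (ferroportin), *Fth1* and *Ftl1* (the ferritin heavy and light chains), *Bmp6* and *Smad7*. They were picked by gene symbol, for their known roles, with earlier results of these data known but no measured value in the rule, and all 10 were found among the 54838 genes of the count table. RNA had been sequenced from whole livers of 12 wild-type C57BL/6J mice, young adults by the study's methods, with 3 mice in each of 4 groups. For 7 days the mice had either plain water or 25 mM ZnSO4 to drink, after which they were injected intraperitoneally with PBS or with 200 µg dexamethasone (Dex, a synthetic glucocorticoid), and the liver was taken 2 h later. The groups are called water-PBS (the control), zinc-PBS, water-Dex and zinc-Dex, they carry no transgene or deletion, and each was studied at a single dose and time.

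Hepcidin is a small peptide hormone that hepatocytes release into the blood. It binds ferroportin, the iron exporter of macrophages, gut epithelium and hepatocytes, and leads to its breakdown, so that less iron enters the plasma. Hepatocytes make hepcidin in response to bone morphogenetic proteins (BMP2 and BMP6) from sinusoidal endothelial cells, which act through hemojuvelin, BMP receptors and SMAD proteins, and in response to interleukin-6 through STAT3. *Smad7* is an inhibitory SMAD that BMP signalling itself induces. Mice carry *Hamp2* beside *Hamp*. Iron uptake, storage and export are also set after transcription: iron regulatory proteins bind hairpins called iron-responsive elements in an mRNA, where they block translation from the 5′ UTR and protect the mRNA from breakdown from the 3′ UTR.

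The promoters of both hepcidin genes are shown because the genes lie next to each other and were counted apart, and because their levels are set against each other below. These are the 250 bases before the start of each gene in RefSeq (GRCm38.p6), on the minus strand, for *Hamp* at chr7:30944030-30944279 and for *Hamp2* at chr7:30924182-30924431. Capitals mark the core of the BMP-responsive element of *Hamp* and the bases aligned to it in *Hamp2*, followed by the STAT motif.

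*Hamp*: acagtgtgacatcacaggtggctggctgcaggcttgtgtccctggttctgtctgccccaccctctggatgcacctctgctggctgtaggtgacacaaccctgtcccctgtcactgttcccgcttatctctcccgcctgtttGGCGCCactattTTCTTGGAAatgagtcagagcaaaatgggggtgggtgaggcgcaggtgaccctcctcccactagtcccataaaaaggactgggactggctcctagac

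*Hamp2*: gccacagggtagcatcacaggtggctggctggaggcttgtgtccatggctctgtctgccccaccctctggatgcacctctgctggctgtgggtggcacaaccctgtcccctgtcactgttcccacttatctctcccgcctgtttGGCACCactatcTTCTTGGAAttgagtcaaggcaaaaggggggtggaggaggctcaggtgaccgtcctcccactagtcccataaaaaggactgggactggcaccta

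Over the 247 aligned bases the promoters were 91.9% identical, with 20 substitutions. The *Hamp* core read GGCGCC and began 109 bases before the start. In *Hamp2* it carried the substitution G4A (*Hamp* base first, counted from 1 at the 5′ end of the core) and began 106 bases before the start. The STAT motif TTCTTGGAA was the same in both. GGCGCC lay in 9.59% of 32851 RefSeq promoter windows of this length and TTCNNNGAA in 7.02%, and both read the same on either strand. TGTTCT, a half-site of the glucocorticoid receptor searched on both strands, lay in 16.1% of them. Of the 10 genes, 7 were matched in the promoter table. Among their windows GGCGCC was found in those of *Hamp* and *Tfrc*, the STAT motif in those of *Hamp* and *Hamp2*, and TGTTCT in none. A match describes letters only and is not evidence of binding.

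The iron-responsive elements are shown because they mark which of the genes have an mRNA known to be under iron control. A hairpin with an unpaired C and a CAGTGN loop (both in capitals) was searched in GENCODE M21 transcripts of GRCm38. It was found in the 5′ UTR of *Fth1* (chr19:9982733-9982759, plus strand), *Ftl1* (chr7:45459780-45459806, minus strand) and *Slc40a1* (chr1:45925466-45925492, minus strand), and 4 times in the 3′ UTR of *Tfrc* on the plus strand (chr16:32631220-32631246, chr16:32631599-32631625, chr16:32631664-32631690 and chr16:32631711-32631737, in this order below). The other 6 genes held none.

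*Fth1*: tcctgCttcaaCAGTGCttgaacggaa

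*Ftl1*: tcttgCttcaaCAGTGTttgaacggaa

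*Slc40a1*: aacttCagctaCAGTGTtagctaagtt

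*Tfrc* element 1: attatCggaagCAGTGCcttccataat

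*Tfrc* element 2: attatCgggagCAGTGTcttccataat

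*Tfrc* element 3: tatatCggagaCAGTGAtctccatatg

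*Tfrc* element 4: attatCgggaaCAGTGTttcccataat

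Such a hairpin was present in 22 of 21181 genes with a 5′ UTR (0.104%) and in 110 of 21166 with a 3′ UTR (0.52%).

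Library totals lay between 9091152 and 12303527 counts, and the 10 genes held 0.336% to 0.437% of them. The groups matched their labels. The metallothionein gene *Mt1* stood at 209 to 435 normalized counts in water-PBS and at 3427 to 6212 in zinc-PBS. *Mt1* also rose with Dex, to 7486 to 7595 in water-Dex, and stood higher in zinc-Dex, at 12370 to 15080. *Tat*, a glucocorticoid receptor target, stood at 7871 to 12190 in water-PBS and at 6174 to 8189 in zinc-PBS. After Dex it stood at 61570 to 64080 on water and at 65080 to 84030 on zinc. The 5 listed hepatocyte markers summed to between 1143000 and 1338000 normalized counts in water-PBS and 1214000 and 1358000 in zinc-PBS. The sum lay between 1495000 and 1599000 in water-Dex, and 1563000 and 1648000 with zinc and Dex. Most of it was *Alb*, with a mean of 1060000 in water-PBS and 1305000 in water-Dex. After Dex 0 of the 5 were called, though 2 on water and 4 on zinc had an adjusted p under 0.05. Of 4 pancreas markers, 3 were at 0 in each group. Kupffer cell markers summed to between 4412 and 6238 over all livers, bile duct (cholangiocyte) markers to between 556 and 1134, and none of the 7 Kupffer or 4 bile duct markers was called in any comparison by DESeq2 or edgeR (0 and at most 2 had an unadjusted p under 0.05). The 5 stellate markers summed to between 5436 and 5627 in water-PBS, 5141 and 5153 in zinc-PBS, 6091 and 6142 in water-Dex, and 5838 and 6888 with zinc and Dex, and 0 were called, though 3 on water and 2 on zinc had an adjusted p under 0.05 after Dex. The 5 lymphocyte markers summed to between 244 and 276, 237 and 275, 178 and 223, and 165 and 201 in the same order, and 1 (*Ms4a1*) was called lower on water. The part of the hepatocyte, stellate and lymphocyte markers in the Dex results below was not tested. In whole liver, fewer cells of a type and less RNA per cell cannot be told apart.

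Levels below are read counts divided by the DESeq2 size factor of each library. Levels of different genes were ranked per kb of exon, where the length joins all annotated exons of a gene. This length was 410 bases for *Hamp*, 3469 for *Fth1* and 9000 for *Slc40a1*. It can exceed that of the mRNA, so the order depends on it. In counts not scaled by length, *Fth1* (mean 12340 in water-PBS) stood above *Hamp* (4172). The hepcidin ratio below also uses counts not scaled by length. In water-PBS, *Hamp* stood highest at 10180 normalized counts per kb, followed by *Ftl1* (4076), *Fth1* (3558), *Hamp2* (3213) and *Trf* (2747). *Tfr2* stood at 788, *Slc40a1* at 327 and *Tfrc* at 62.6. *Smad7* (39.1) and *Bmp6* (20.1) were lowest. *Ftl1* and *Trf* carry further uncertainty in this order. For *Ftl1*, 58.4% of its 50-base words also occur in other genes (mostly *Ftl1-ps1*), and reads that map to several places had been left out. For *Trf* the share was 59.4%, mostly with *Gm20425*, which overlaps it on the same strand over 2108 exonic bases. *Gm20425* had 0 counts in each library, and how reads in such overlaps were assigned was not stated. For *Hamp* the share was 16.6%, all of it with *Hamp2*, and for *Tfrc*, *Slc40a1* and *Smad7* it was 0. The share depends on the word length. With 75-base words it was 51.3% for *Ftl1*, 56% for *Trf* and 3.87% for *Hamp*. The 224 exonic bases that *Bmp6* shares with the opposite-strand gene *Txndc5* (1492 to 2293 counts, against 64 to 115 for *Bmp6*) also leave its level uncertain, since the strand setting of the counting was not stated.

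The genes differed widely in how much livers of the same group varied. The within-group SD on the log2 scale was 0.54 for *Hamp*, 0.54 for *Smad7*, 0.47 for *Hamp2* and 0.37 for *Tfrc*, and 99.0%, 99.0%, 98.5% and 96.9% of the 9573 genes averaging 50 normalized counts or more had a smaller SD. It was 0.27 for *Bmp6*, 0.14 for *Slc40a1* and *Trf*, and 0.10 for *Tfr2* and *Ftl1*. *Fth1* varied least, with an SD of 0.06 and 3.58% of genes below it. A change of a given size was therefore easier to detect in the ferritins, *Tfr2*, *Trf* and *Slc40a1* than in the hepcidins and *Smad7*.

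**Figure D1:**
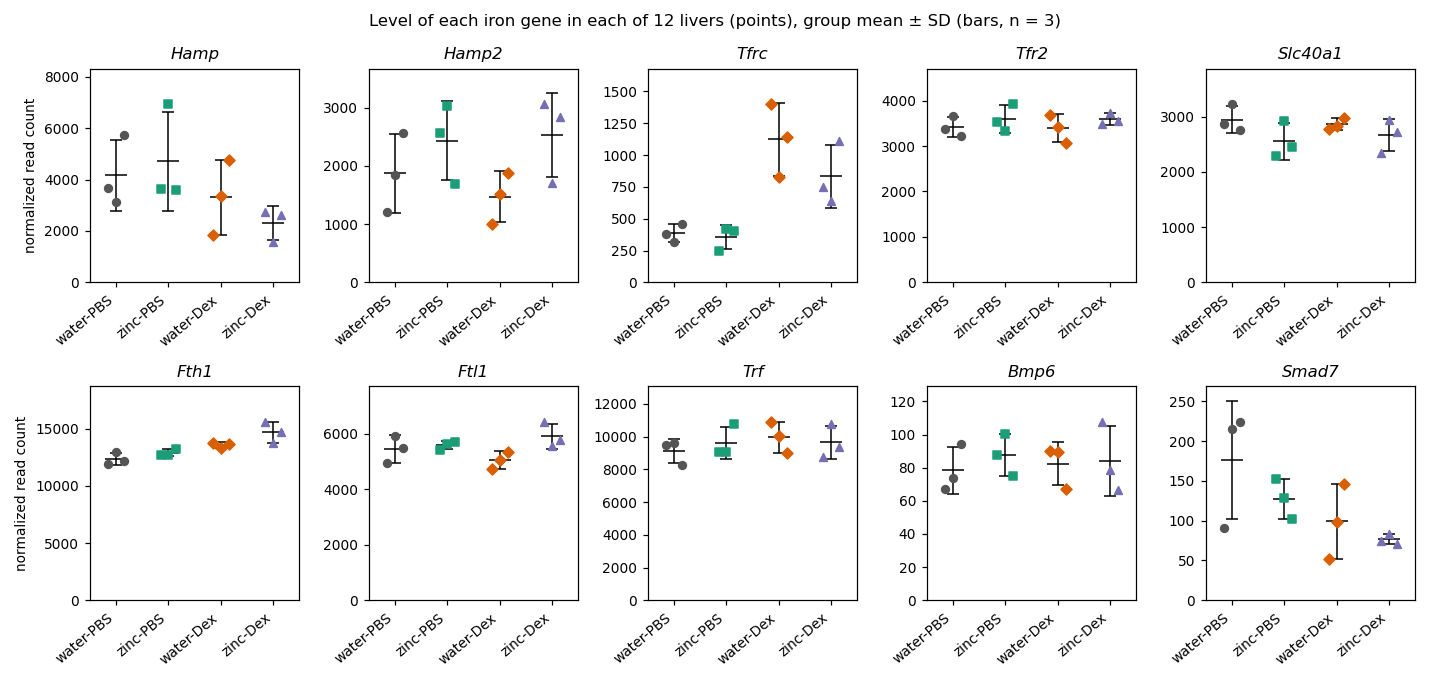
Normalized read counts (y axis, from 0 in each panel) of the 10 genes in each of the 12 livers, by group (x axis). Points are livers and black bars are the group mean ± SD (n = 3). *Tfrc* lay between 635 and 1400 in the 6 Dex-injected livers and between 250 and 459 in the 6 PBS-injected ones, while *Tfr2*, *Trf* and *Bmp6* overlapped between all groups.

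Whether 2 h of Dex changed these genes was asked first in mice on plain water. The threshold for a call was an adjusted p under 0.05 in DESeq2, over all genes, together with an absolute log2 fold change above 0.8. By this rule *Tfrc* was called higher in water-Dex than in water-PBS and none of the other 9 genes was called. Over all genes, 9.68% of the 14221 tested were called, 4.89% higher and 4.79% lower. The median log2 fold change of the 10 genes was -0.03, beside -0.01 over all genes.

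*Tfrc* encodes transferrin receptor 1, through which cells take up iron-loaded transferrin. Its normalized count was 382, 320 and 459 in water-PBS and 1400, 826 and 1145 in water-Dex. Each Dex-injected liver lay above each control liver. The mean rose from 387 ± 69.5 to 1124 ± 287 (SD, n = 3), a 2.90-fold change (95% interval 2.10 to 4.02; log2 1.54, SE 0.239, DESeq2 adjusted p 3.29e-09). Over the 14 alternatives the log2 value stayed between 1.35 and 1.72 and the call was kept.

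In zinc-treated mice Dex gave the same call for *Tfrc*. Its count was 250, 419 and 400 in zinc-PBS and 753, 635 and 1111 in zinc-Dex, again without overlap. The mean rose from 356 ± 92.5 to 833 ± 248, a 2.34-fold change (1.69 to 3.24; log2 1.23, SE 0.240, DESeq2 adjusted p 5.13e-06). *Tfrc* was also the gene called higher when zinc-Dex was set against water-PBS (log2 1.11, SE 0.240, DESeq2 adjusted p 7.02e-05). Over alternatives the log2 value lay between 0.96 and 1.39 against zinc-PBS and between 0.85 and 1.27 against water-PBS, and both calls were kept. The comparison with water-PBS shares libraries with both others, which share none with each other.

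*Tfrc* is also abundant in immature red cells, and red cell genes are given beside it. The 6 listed red cell genes summed to between 889 and 1561 normalized counts in water-PBS, 778 and 968 in zinc-PBS, 1214 and 2136 in water-Dex, and 1363 and 1513 with zinc and Dex. After Dex on water none of the 6 was called, the median log2 fold change of the 5 with an adjusted p was 0.53, and *Hbb-bt* had the lowest adjusted p (log2 0.67, DESeq2 adjusted p 0.0446). On zinc the median was 0.76. *Hba-a1* was the 1 of the 6 called higher in zinc-Dex than in zinc-PBS (log2 0.95, DESeq2 adjusted p 0.00223) and not in water-Dex against water-PBS (log2 0.40, adjusted p 0.296). *Alas2*, the haem synthesis enzyme of immature red cells, stood at 128, 161 and 186 in water-PBS and at 206, 167 and 122 in water-Dex (log2 0.06, DESeq2 adjusted p 0.890). The part of these cells in the *Tfrc* values was not tested.

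The hepcidin genes were not called with Dex. *Hamp*, the main hepcidin gene, stood at 3672, 3113 and 5732 in water-PBS and at 1836, 3353 and 4753 in water-Dex. These groups overlapped (4172 ± 1379 and 3314 ± 1459; fold 0.794, 95% interval 0.440 to 1.44, DESeq2 adjusted p 0.672). In zinc-treated mice *Hamp* stood at 3625, 6929 and 3575 after PBS and at 2738, 1570 and 2620 after Dex, so that each zinc-Dex liver lay below each zinc-PBS liver. The fold was 0.490 (0.271 to 0.886; log2 -1.03, SE 0.436), with an adjusted p of 0.0803 in DESeq2 and of 0.0373 in edgeR's quasi-likelihood test, so the call depended on the tool. Without zinc-PBS replicate 2, the liver with 6929 counts, the log2 value was -0.64, and over all alternatives the adjusted p lay between 0.0373 and 0.377. Against water-PBS the zinc-Dex livers were also all lower in *Hamp*, by 0.85 on the log2 scale (SE 0.436, DESeq2 adjusted p 0.214).

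*Hamp2*, the neighbouring hepcidin gene, stood at 1212, 1847 and 2561 in water-PBS and at 1009, 1525 and 1884 in water-Dex, with a fold of 0.786 (0.481 to 1.28; DESeq2 adjusted p 0.576). It stood at 2567, 3033 and 1697 in zinc-PBS and at 3059, 1712 and 2836 in zinc-Dex, with a fold of 1.04 (0.638 to 1.70; DESeq2 adjusted p 0.944). Both pairs of groups overlapped. *Hamp2* has an opposite-strand neighbour, *Gm44662*, with at most 1 count in a library.

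The ratio of *Hamp* to *Hamp2* within a liver set the zinc-Dex mice apart. It was 3.03, 1.69 and 2.24 in water-PBS, 1.41, 2.28 and 2.11 in zinc-PBS and 1.82, 2.20 and 2.52 in water-Dex. In zinc-Dex it was 0.895, 0.917 and 0.924, below each of the other 9 livers and with a mean of 0.912 ± 0.0149 (SD, n = 3). The means of the other groups were 2.32 ± 0.676, 1.93 ± 0.461 and 2.18 ± 0.353. The ratio was singled out after its values were seen and is given as a description. With 3 mice against 3, an exact permutation test cannot go below 0.10. Reads from words shared by both genes had been left out of both counts. Nor were the counts scaled by exon length, which is 410 bases for *Hamp* and 583 for *Hamp2*. The ratio is therefore one of counts and not of transcripts. Per kb of exon, *Hamp* stood above *Hamp2* in zinc-Dex too, with means of 5632 and 4349.

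**Figure D2:**
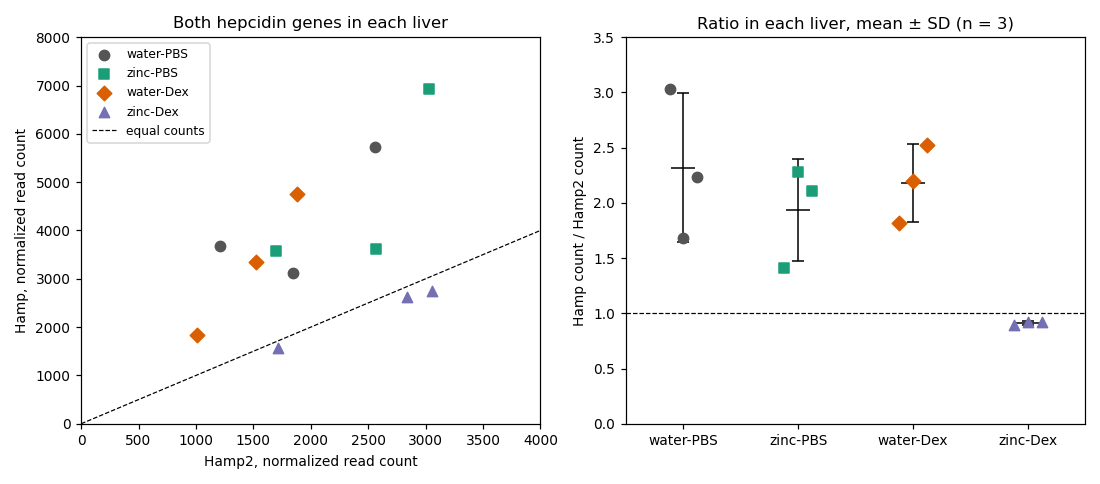
Left, *Hamp* (y axis) against *Hamp2* (x axis) in normalized read counts for each of the 12 livers, with a dashed line at equal counts. Right, the ratio of the counts in each liver (points) by group, with mean ± SD (n = 3) and a dashed line at 1. The 3 zinc-Dex livers sit just below the line, between 0.895 and 0.924, and the other 9 lie between 1.41 and 3.03. Counts are not scaled by exon length.

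*Smad7*, the inhibitory SMAD, was not called in either Dex comparison, and was called lower in zinc-Dex against water-PBS, groups that differ in zinc and in Dex. Its count was 91.4, 215 and 224 in water-PBS, 153, 129 and 102 in zinc-PBS, 51.8, 98.9 and 146 in water-Dex, and in zinc-Dex it was 74.9, 83.3 and 71.1. Each zinc-Dex liver lay below each PBS-injected liver, while water-Dex overlapped with water-PBS. Zinc-Dex was called lower than water-PBS (fold 0.432, 95% interval 0.272 to 0.687; log2 -1.21, SE 0.341, DESeq2 adjusted p 0.00434). In that comparison 7.24% of 21401 genes were called, 3.69% higher and 3.55% lower, and *Tfrc* and *Smad7* were the 2 of the 10 genes among them. Without zinc-Dex replicate 1 the call was lost at nearly the same value (log2 -1.19, DESeq2 adjusted p 0.0806). Water-Dex against water-PBS gave log2 -0.84 (SE 0.338, DESeq2 adjusted p 0.0593) and was not called. The call was gained at log2 -1.15 without water-PBS replicate 1, the liver with 91.4 counts, and at log2 -1.23 without water-Dex replicate 3, the liver with 146. It was also gained when the test was limited to genes reaching 10 counts in 3 or more libraries (DESeq2 adjusted p 0.0486). In the other direction, the log2 value was -0.53 without water-Dex replicate 1, the liver with 51.8 counts. Over all alternatives of DESeq2 and edgeR the adjusted p lay between 0.00130 and 0.388. Zinc-Dex against zinc-PBS gave log2 -0.74 (SE 0.343, DESeq2 adjusted p 0.118).

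*Bmp6*, the endothelial ligand that raises hepcidin, was expressed at 67.2 to 94.5 normalized counts in water-PBS, 75.1 to 100.5 in zinc-PBS, 67.3 to 90.4 in water-Dex and 66.3 to 107.5 in zinc-Dex. The Dex fold was 1.05 on water (95% interval 0.770 to 1.43) and 0.957 on zinc (0.705 to 1.30). Its DESeq2 adjusted p was 0.881 and 0.902. Of 7 listed sinusoidal endothelial markers, 1 was called higher and 1 lower in each Dex comparison (*Lyve1*, log2 2.53, and *Kdr*, log2 -1.14, on water), and the sum of the 7 lay between 4327 and 5075 over all livers.

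*Tfr2*, the transferrin receptor by which hepatocytes sense iron-loaded transferrin, lay between 3077 and 3921 normalized counts in the 12 livers. Its Dex fold was 0.993 (95% interval 0.876 to 1.13) on water and 0.999 (0.882 to 1.13) on zinc. *Trf*, the plasma iron carrier, lay between 8277 and 10880, with Dex folds of 1.09 (0.938 to 1.27) and 1.002 (0.861 to 1.16). *Slc40a1*, the exporter, lay between 2293 and 3223, with Dex folds of 0.972 (0.834 to 1.13) and 1.04 (0.895 to 1.22).

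*Fth1*, the ferroxidase chain of ferritin, was the member with the smallest spread, and zinc-Dex passed the test against zinc-PBS and against water-PBS without reaching the fold threshold. It stood at 11900, 12940 and 12180 in water-PBS, 12730, 12730 and 13240 in zinc-PBS, 13790, 13330 and 13680 in water-Dex, and the zinc-Dex livers had 15590, 13730 and 14720. Each Dex-injected liver lay above each PBS-injected liver. The Dex fold was 1.10 on water (95% interval 1.01 to 1.20; DESeq2 adjusted p 0.115) and 1.14 on zinc (1.04 to 1.24; DESeq2 adjusted p 0.0242). Zinc-Dex stood 1.19-fold above water-PBS (1.09 to 1.30; DESeq2 adjusted p 0.00148). Under edgeR the adjusted p was 0.0878 against zinc-PBS and 0.0230 against water-PBS. *Ftl1*, the light chain, stood at 4947 to 5939 in water-PBS and 4722 to 5363 in water-Dex, with a fold of 0.925 (0.819 to 1.04), and at 5433 to 5720 in zinc-PBS and 5556 to 6425 in zinc-Dex, with a fold of 1.06 (0.937 to 1.19).

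In zinc-treated mice as a whole, Dex was called for 1 of the 10 genes, where 9.68% of 15657 genes were called (5.0% higher and 4.68% lower). The median log2 fold change of the 10 genes was 0.03, beside -0.01 over all genes.

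**Figure D3:**
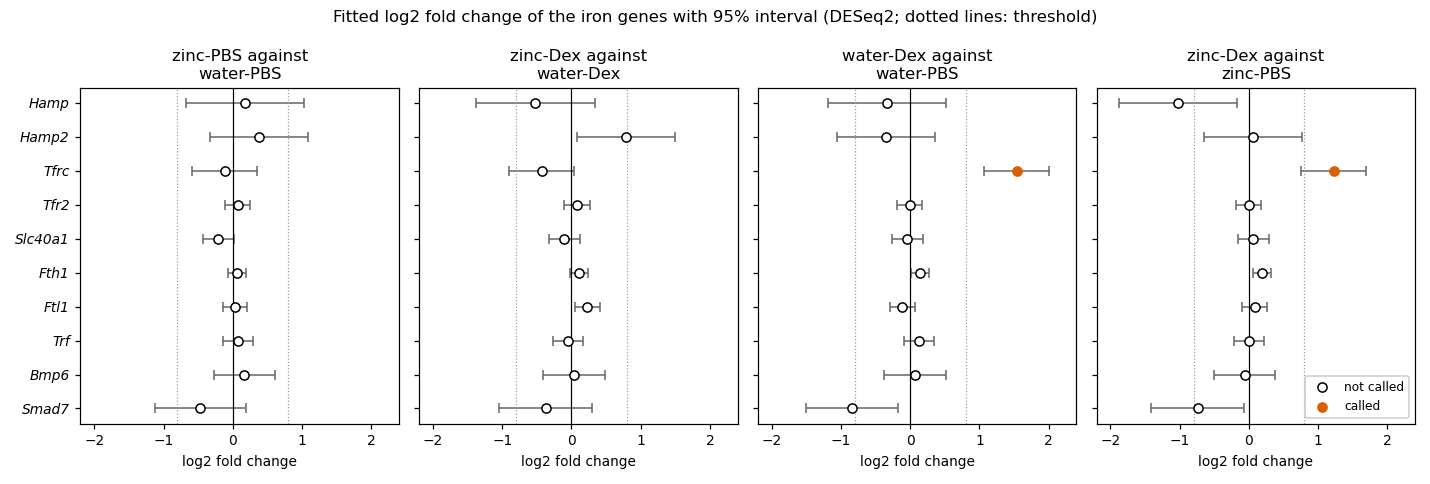
Fitted log2 fold changes (x axis) of the 10 genes with 95% intervals in 4 comparisons, where filled points were called and open points were not, and dotted lines mark the threshold of 0.8 in either direction. *Tfrc* is the filled point in both Dex comparisons (log2 1.54 and 1.23), and no gene was called in either zinc comparison.

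The effect of zinc was measured in PBS-injected and in Dex-injected mice. None of the 10 genes was called in zinc-PBS against water-PBS, where 0.138% of 12307 genes were called. None had an unadjusted p under 0.05 and edgeR called none. The median log2 fold change of the 10 was 0.07, beside 0.00 over all genes. The interval of the zinc fold was 0.926 to 1.19 for *Tfr2*, 0.957 to 1.14 for *Fth1*, 0.908 to 1.16 for *Ftl1*, 0.907 to 1.23 for *Trf* and 0.743 to 1.01 for *Slc40a1*. For the genes with a large spread it was wide. It was 0.625 to 2.04 for *Hamp*, 0.795 to 2.12 for *Hamp2*, 0.663 to 1.28 for *Tfrc* and 0.459 to 1.14 for *Smad7*. A change within these bounds is thus not excluded with 3 mice a group. The direction of the *Hamp* difference turned from log2 0.17 to -0.21 without zinc-PBS replicate 2.

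Zinc-Dex against water-Dex called none of the 10 genes either, where 0.469% of 12786 genes were called. edgeR called none, and 2 genes, *Hamp2* and *Ftl1*, had an unadjusted p under 0.05. *Hamp2* was 1.72-fold higher (95% interval 1.05 to 2.81; log2 0.78, DESeq2 p 0.0302, adjusted p 0.410), with 1 zinc-Dex liver (1712) within the range of the water-Dex livers. *Ftl1* was 1.17-fold higher (1.04 to 1.32; log2 0.23, DESeq2 p 0.0102, adjusted p 0.239), with each zinc-Dex liver above each water-Dex liver. *Hamp* gave a fold of 0.697 (0.386 to 1.26) and *Tfrc* of 0.742 (0.537 to 1.02), with DESeq2 adjusted p of 0.802 and 0.555. Both groups overlapped for these 2 genes.

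The interaction term tested whether the Dex response differed between zinc-treated and water mice. It was called for none of the 10 genes and for 0.0191% of the 26185 tested, none of the 10 had an unadjusted p under 0.05, and edgeR called none. The interaction was -0.70 for *Hamp* (log2, 95% interval -1.90 to 0.51), 0.41 for *Hamp2* (-0.59 to 1.41), -0.31 for *Tfrc* (-0.98 to 0.35) and 0.09 for *Smad7* (-0.85 to 1.04). For *Tfr2* (-0.25 to 0.27) and *Fth1* (-0.13 to 0.23) the intervals were narrow. The *Hamp* responses on water and on zinc are thus not shown to differ.

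Single livers had high or low values in several of these genes at once. Among the water-Dex livers, replicate 1 had the lowest *Hamp* (1836), *Hamp2* (1009) and *Smad7* (51.8) and the highest *Tfrc* (1400), and its *Id1* was also lowest, at 47.7 beside 146 and 149. Among the water-PBS livers, replicate 3 had the highest *Hamp* (5732), *Hamp2* (2561), *Smad7* (224), *Id1* (229) and *Tfrc* (459). Among the zinc-PBS livers, replicate 1 had the highest *Socs3* (701 beside 83.9 and 146), *Lcn2* (341 beside 83.9 and 73.3) and *Steap4* (4766 beside 2048 and 1985). The acute phase gene *Saa1* stood at 2865 there, beside 250 and 236, while *Hamp* stood at 3625, beside 6929 and 3575. Without this liver the Dex log2 fold change of *Lcn2* on zinc was 4.97, beside 3.89 with all livers. These livers, and *Steap4* and *Saa1*, were singled out after their values were seen. Without water-Dex replicate 1 the Dex log2 fold change of *Tfrc* on water was 1.35. That of *Hamp* on water was -0.03 without water-PBS replicate 3 and -0.68 without water-Dex replicate 3.

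The genes whose pattern over the 12 livers was most like that of *Hamp*, *Tfrc* and *Smad7* were found among the 9572 other genes averaging 50 normalized counts or more, by the root mean square difference of log2(normalized count + 1) after centring. For *Hamp* they were *Tmem51* (0.32), *Tia1* (0.35) and *Zfp961* (0.36), beside a root mean square of 0.59 for *Hamp* itself, and *Hamp2* ranked only 3063 (0.58). For *Tfrc* they were *Cited2* (0.27), *Phf20* (0.31) and *Shb* (0.31), beside 0.77. For *Smad7* they were *Snhg17* (0.31), *Id1* (0.34) and *Pcdh12* (0.35), beside 0.61. *Id1*, an inhibitor of DNA binding that BMP signalling induces, stood at 182 ± 41.7 in water-PBS and 83.7 ± 9.75 in zinc-Dex.

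The other genes of the pathway were described from 77 genes in 5 lists. After Dex on water 13 of the 72 with an adjusted p were called, 8 higher and 5 lower, and on zinc 14 of 73, 9 higher and 5 lower. For zinc-Dex against water-PBS 17 of 76 were called, 11 higher and 6 lower. Over all genes the shares called in these comparisons were 9.68%, 9.68% and 7.24%. None was called for zinc with PBS or with Dex, or for the interaction, where edgeR also called none and where 7, 8 and 4 had an unadjusted p under 0.05. The median log2 fold change of those with an adjusted p was 0.05 after Dex on water (72 genes) and 0.01 on zinc (73 genes).

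Of the 30 genes of hepcidin control, 28 had an adjusted p in each Dex comparison. Among them 2 were called higher and 5 lower after Dex on water, and 3 higher and 5 lower on zinc. The genes called lower on water were targets or carriers of the BMP signal and a feedback inhibitor of STAT3. *Id2* fell from 1872 ± 282 to 220 ± 94.4 (log2 -3.09, DESeq2 adjusted p 4.77e-43) and *Id3* from 877 ± 361 to 125 ± 27.4 (log2 -2.81). *Smad9*, which encodes the SMAD8 protein, fell from 241 ± 71.3 to 62.4 ± 3.82 (log2 -1.95, DESeq2 adjusted p 9.41e-14), and *Atoh8*, a transcription factor that acts on the hepcidin promoter, from 214 ± 15.5 to 83.0 ± 29.9 (log2 -1.36, DESeq2 adjusted p 5.92e-07). *Socs3*, the STAT3 feedback gene, fell from 105 ± 26.7 to 15.5 ± 5.95 (log2 -2.76). On zinc its log2 value was -4.20, and -2.77 without zinc-PBS replicate 1, where *Socs3* stood at 701 beside 83.9 and 146. These 5 genes fell on zinc too, with log2 values of -3.53 for *Id2*, -2.72 for *Id3*, -2.27 for *Smad9* and -1.11 for *Atoh8*. *Il6ra*, the interleukin-6 receptor, rose from 829 ± 116 to 2992 ± 60.7 (log2 1.85, DESeq2 adjusted p 2.43e-25), and *Furin*, a protease that cuts prohepcidin and hemojuvelin, rose by log2 0.84, or 0.78 without water-PBS replicate 3, which ended its call. *Bambi*, a decoy BMP receptor, rose on zinc (log2 1.22, DESeq2 adjusted p 5.96e-06) and was not called on water (log2 0.62, adjusted p 0.0607). *Id1* was called lower in zinc-Dex against water-PBS alone (log2 -1.12, DESeq2 adjusted p 0.00938), and the call was lost when any of 5 of the 6 compared libraries was left out (DESeq2 adjusted p 0.0592 to 0.148).

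The BMP co-receptor gene *Hjv* (hemojuvelin) and the ligand gene *Bmp2*, both named after their values were seen, passed the test after Dex on water but not the fold threshold. *Hjv* stood at 730, 748 and 848 in water-PBS and at 461, 419 and 478 in water-Dex. Its log2 fold change of -0.77 (SE 0.126, DESeq2 adjusted p 1.95e-08) lay just within the threshold, and it was called when water-PBS replicate 1 (-0.82), water-PBS replicate 2 (-0.80) or water-Dex replicate 3 (-0.81) was left out. On zinc its log2 value was -0.62 (DESeq2 adjusted p 9.30e-06). *Bmp2* stood at 353, 288 and 292 in water-PBS and at 206, 210 and 215 in water-Dex (log2 -0.56, SE 0.126, DESeq2 adjusted p 9.73e-05), and its log2 value on zinc was -0.19 (DESeq2 adjusted p 0.343).

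Of 13 genes of iron uptake and transport, 11 had an adjusted p after Dex on water and 12 on zinc. In each comparison 2 were called higher and none lower. Over all genes, 3067 of 14221 on water and 3145 of 15657 on zinc had an adjusted p under 0.05. Of the listed genes, 4 on water and 5 on zinc did. Among these *Steap3*, a ferrireductase named after its values were seen, was lower under the fold threshold on water (log2 -0.53, DESeq2 adjusted p 0.00320) and on zinc (log2 -0.43, adjusted p 0.0233), as was *Slc11a2* on zinc (log2 -0.45, adjusted p 0.0108). *Lcn2*, a protein that binds bacterial iron carriers, stood at 57.8, 103.7 and 70.3 in water-PBS and at 2069, 1225 and 1993 in water-Dex (22.8-fold, 95% interval 10.5 to 49.5, DESeq2 adjusted p 1.05e-13). *Slc39a14*, the importer ZIP14 that carries iron and zinc, rose by log2 0.84, or 0.76 without water-PBS replicate 3 and 0.79 without water-Dex replicate 3, which ended its call. *Heph*, a copper ferroxidase with a mean of 44.4 counts, was called higher in zinc-Dex against water-PBS (log2 0.88), or 0.75 without water-PBS replicate 3, which ended its call, and was named after its values were seen. *Slc11a2*, the iron importer DMT1, named likewise, stood at 325, 281 and 289 in water-Dex and at 190, 212 and 173 in zinc-Dex. Its log2 value of -0.64 (SE 0.143, DESeq2 adjusted p 0.00223, edgeR adjusted p 0.0410) lay within the threshold.

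Of 8 genes of iron storage and sensing, 7 had an adjusted p in each Dex comparison. None was called in either by DESeq2 or edgeR, although 4 on water and 5 on zinc had a DESeq2 adjusted p under 0.05. Over all genes, 3067 of 14221 on water and 3145 of 15657 on zinc had one. *Ncoa4*, the carrier of ferritin to the lysosome, went from 395.5 ± 38.1 to 643 ± 20.3 on water (log2 0.70, DESeq2 adjusted p 1.08e-10) and was called in zinc-Dex against water-PBS (log2 0.81), a call lost without water-PBS replicate 2 or 3 or zinc-Dex replicate 1 (log2 0.76 to 0.78). Of 19 genes of haem handling, 4 were called higher and none lower in each Dex comparison. *Alas1*, the first enzyme of haem synthesis, rose from 3418 ± 883 to 17070 ± 3338 on water (4.99-fold, 2.89 to 8.63, DESeq2 adjusted p 1.61e-07). *Flvcr2*, a haem transporter family member, rose by log2 2.52. *Hp*, the plasma haemoglobin binder haptoglobin, rose by log2 1.82, and its receptor *Cd163*, a macrophage gene, by log2 0.90 (0.75 without water-PBS replicate 3 and 0.79 without water-Dex replicate 1, which ended its call). *Hp* is also an acute phase gene and is 1 of the 10 listed. The 10 summed to between 132500 and 173800 in water-PBS and 221900 and 229100 in water-Dex. The mean of *Hp* alone went from 14380 to 50600. Of the 8 acute phase genes with an adjusted p on water, 2 (*Hp* and *Lbp*) were called higher and 0 lower. Their median log2 fold change was 0.34. For zinc alone, in zinc-PBS against water-PBS, *Hp* was higher under the fold threshold (log2 0.59, DESeq2 adjusted p 0.0195). Each zinc-PBS liver lay above each water-PBS liver. Under edgeR 0 of the 19 haem handling genes had an adjusted p under 0.05 there. None of the 7 iron-sulfur cluster genes was called in any comparison, by DESeq2 or edgeR, and 1 had an unadjusted p under 0.05 in 1 comparison. On zinc the calls of *Slc39a14*, *Furin* and *Cd163* were lost without zinc-PBS replicate 2 (log2 0.73, 0.78 and 0.79). Those of *Slc39a14* without zinc-Dex replicate 3 (0.72) and of *Cd163* without zinc-Dex replicate 2 (0.71) were lost too. *Alas1*, *Furin* and *Il6ra* have opposite-strand neighbours (*4930500F10Rik*, *Gm44851* and *Gm42809*), which leaves their own levels uncertain.

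**Figure D4:**
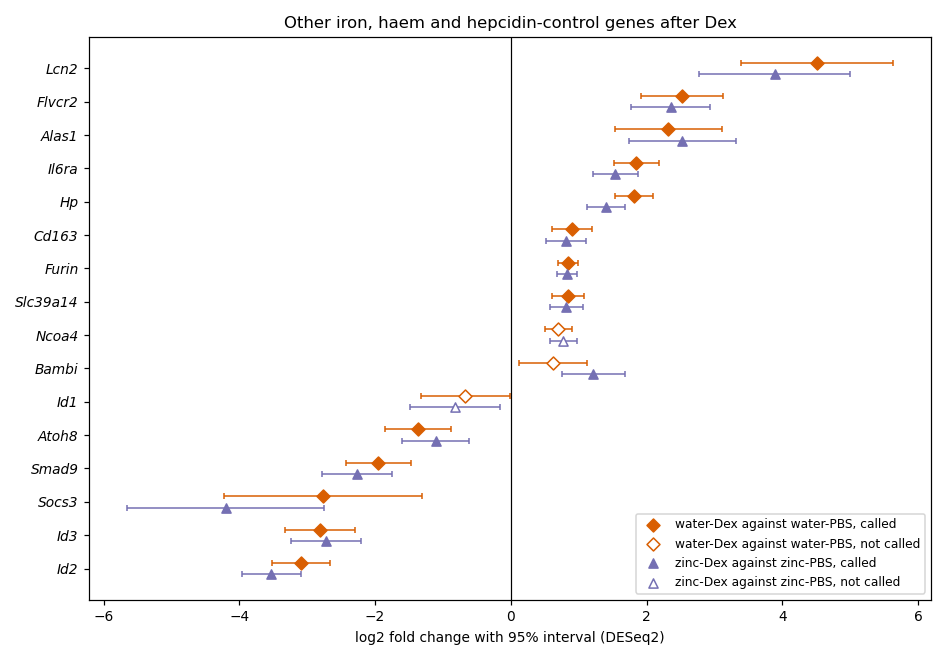
Fitted log2 fold changes (x axis) with 95% intervals after Dex on water (diamonds) and on zinc (triangles) for the 16 other iron, haem and hepcidin-control genes named by the rule (y axis), where filled symbols were called. *Lcn2* lies highest (log2 4.51 on water) and *Id2* lowest on water (log2 -3.09), and each gene lies on the same side of 0 in both comparisons.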

How the data were processed

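Total RNA from 12 mouse livers, 1 library per mouse, had been sequenced from stranded TruSeq libraries as single-end reads. The authors mapped the reads to mm10 with HISAT2 2.0.4 (version per the labels) and made raw counts per Ensembl gene with featureCounts, without reads that map to several places. The deposited counts are not normalized. The annotation release and strand setting are not given in the sources used here. The rule for the 10 genes uses symbols and no measured value, but both they and the gene lists were chosen with earlier results of these data known. Symbols and coordinates came from GENCODE M21 (GRCm38), with 54809 of 54838 identifiers matched.

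All genes were fitted in DESeq2 1.42.0 (R 4.3.3), with 1 coefficient per group over 12 libraries, Wald tests, unshrunken fold changes, default independent filtering and Cook's distance, as the study's methods name DESeq2 at an FDR of 5%. A call needed an adjusted p (Benjamini-Hochberg, over all genes tested) under 0.05 together with a log2 fold change beyond 0.8 in either direction. Wald intervals are at 95%. Besides the 10 genes, the text names listed iron genes called in at least 1 comparison with a mean of at least 50 counts, and the 3 genes most like *Hamp*, *Tfrc* and *Smad7*. Other names are marked as chosen after their values were seen. Replicates of a group differed 6.20 to 20.7 times more than counting alone (chi-square per degree of freedom), and all 12 columns were used. Alternatives were edgeR 4.0.16 (quasi-likelihood), TMM factors in DESeq2, a filter at 10 counts in 3 libraries, the replicate number as a term, each library left out, the compared libraries alone, and fits that omitted the fold change threshold, independent filtering or Cook's distance. The scripts were tested on simulated counts. Promoters came from RefSeq (GRCm38.p6). 1 marker gene is not reported here.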

Additional observations from a re-analysis of the deposited data

How the results depend on the processing

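Of 890 alternative values for the 10 genes over 60 gene and comparison pairs, 882 kept the call as given, 7 gained a call and 1 lost it, and none reversed a called direction. For water-Dex against water-PBS, where 1 of the 10 genes was called, the number was 2 with the filter at 10 counts, 2 with the replicate number as a term (the replicate block, *Smad7* at DESeq2 adjusted p 0.0435), and 1 to 2 without 1 library. For zinc-Dex against zinc-PBS it was 2 with edgeR, 2 with no fold change threshold and 1 in each fit without 1 library. For zinc-Dex against water-PBS it was 1 to 2 without 1 library. Of the 77 other iron genes, omitting the fold change threshold called 1 in zinc-PBS against water-PBS, 25 in water-Dex against water-PBS, 29 in zinc-Dex against zinc-PBS, 1 in zinc-Dex against water-Dex and 29 in zinc-Dex against water-PBS. By the same rule, 42 of 12307, 3067 of 14221, 3145 of 15657, 173 of 12786 and 3174 of 21401 were called over all genes, in this order. For the 77 genes, leaving out 1 library gave 0, 10 to 15, 12 to 17, 0 to 1 and 13 to 17 in these comparisons, and the 1 was *Slc11a2* without water-Dex replicate 1. The replicate block also ended the call of *Id1* in zinc-Dex against water-PBS (DESeq2 adjusted p 0.0935). The replicate numbers did not pair the mice: of 18 same-numbered pairs across groups, 1 had a correlation of deviations over 0.1 (range -0.20 to 0.19), and 6 of 12 libraries correlated better with their own number. The depth of 9091152 to 12303527 counts left the spread between mice, not counting, as the limit for *Hamp*, *Hamp2*, *Tfrc* and *Smad7*.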
